A study of Mus musculus with 8 samples.

Results

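Interferon stimulated genes are the transcripts that cells raise when an interferon binds its receptor. The 29 genes described here were taken as a named list of such genes. Each gene was read from the probe set that carries its symbol alone in the platform annotation, and from the brightest of these by mean over all arrays where there were several. In this way 25 of the 29 genes were measured, among 22180 genes in all. Of these, 23 passed the filter on dim genes and were tested, among 14786 tested genes. Mx1 and Mx2 were measured but fell below the filter. The probe sets of Oas1a, Gbp2 and Tgtp1 also carry the symbol of a close relative, so these genes are not given a value. The expression of Ifi44 is not analysed here.

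The arrays come from the left epididymal fat pad, a white fat depot, in 8 C57BL/6 males, and each animal gave 1 array. The 4 prednisolone mice received this synthetic glucocorticoid daily in sweet potato puree, from 6 weeks of age and for 4 weeks, at a dose given in the labels as 40 mg per kg per square metre. The 4 vehicle mice received the puree alone. All 8 mice, vehicle mice included, ate a high-fat diet (45% kcal) that was n-6 rich from 3 weeks of age, and the fat pad was sampled at 10 weeks. Another diet is not analysed here. Mice are called by the replicate number of their label. Values are log2 expression values, and differences are prednisolone minus vehicle means on that scale, each followed by its standard error from limma, with 4 mice in each group. Their precision is limited by how few arrays there are.

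Type I interferons signal through the kinases Jak1 and Tyk2 to a complex that includes Stat2 and Irf9 and binds a DNA element called the interferon stimulated response element (ISRE). Interferon gamma acts mainly through a second element, the gamma activated site (GAS), and is the stronger inducer of the guanylate-binding and immunity-related GTPases. In fat, adipocytes, macrophages and endothelial cells can all mount this response. Glucocorticoids are known to dampen interferon signalling in macrophages.

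Promoters are shown to set out the elements through which interferon acts on these genes, for 7 members picked among those in which a search found such an element. RefSeq promoter windows of build GRCm38.p6 were matched for 22 of the 29 members, and Zbp1, Usp18, Oas2, Mx1, Mx2, Rtp4 and Iigp1 had none. The 250 bases before the annotated start were searched on both strands for the ISRE core, taken as GAAA, any 2 bases and GAAA again, and for the GAS core, taken as TTC, any 3 bases and GAA, which reads the same on both strands. The ISRE core was in 13 of 24 member windows (54.2%) and in 2.98% of all 32851 windows. The GAS core was in 5 member windows and in 7.02% of all windows. A GAS match overlapped an ISRE match in 1 member, Bst2. The windows of 8 members held neither core and are not printed: Ifih1, Ddx58, Irf7, Oasl1, Oasl2, Cmpk2, Ifi44 and Xaf1. Capitals mark either core in the sequences that follow, each written 5′ to 3′ toward the start of transcription.
Stat2: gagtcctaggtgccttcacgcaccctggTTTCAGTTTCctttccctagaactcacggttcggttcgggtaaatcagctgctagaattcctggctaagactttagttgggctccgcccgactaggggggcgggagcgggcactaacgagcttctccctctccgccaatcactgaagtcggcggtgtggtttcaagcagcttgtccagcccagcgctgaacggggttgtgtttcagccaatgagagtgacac
Isg15: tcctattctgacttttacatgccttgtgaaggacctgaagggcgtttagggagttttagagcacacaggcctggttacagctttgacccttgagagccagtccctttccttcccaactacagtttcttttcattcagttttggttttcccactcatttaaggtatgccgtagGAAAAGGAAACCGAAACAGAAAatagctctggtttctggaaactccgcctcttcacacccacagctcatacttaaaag
Ifit1: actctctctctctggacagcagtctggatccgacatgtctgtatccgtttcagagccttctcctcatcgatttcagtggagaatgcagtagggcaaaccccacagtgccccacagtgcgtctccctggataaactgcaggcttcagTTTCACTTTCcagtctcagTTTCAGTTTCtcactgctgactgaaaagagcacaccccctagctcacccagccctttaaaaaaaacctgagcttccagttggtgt
Ifit2: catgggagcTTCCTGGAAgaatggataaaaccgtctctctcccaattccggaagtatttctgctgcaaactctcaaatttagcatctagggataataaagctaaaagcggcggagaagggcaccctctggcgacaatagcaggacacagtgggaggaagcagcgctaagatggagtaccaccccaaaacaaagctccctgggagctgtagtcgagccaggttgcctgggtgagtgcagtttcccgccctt
Ifit3: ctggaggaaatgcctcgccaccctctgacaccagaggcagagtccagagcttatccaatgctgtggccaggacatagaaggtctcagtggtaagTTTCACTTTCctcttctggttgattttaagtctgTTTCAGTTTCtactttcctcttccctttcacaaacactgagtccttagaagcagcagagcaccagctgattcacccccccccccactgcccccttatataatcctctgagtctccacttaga
Igtp: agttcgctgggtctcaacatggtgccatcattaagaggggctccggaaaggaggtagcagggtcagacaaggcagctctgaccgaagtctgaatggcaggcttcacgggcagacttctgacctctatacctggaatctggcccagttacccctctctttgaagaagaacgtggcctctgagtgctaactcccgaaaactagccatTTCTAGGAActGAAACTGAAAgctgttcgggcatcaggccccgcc
Irgm1: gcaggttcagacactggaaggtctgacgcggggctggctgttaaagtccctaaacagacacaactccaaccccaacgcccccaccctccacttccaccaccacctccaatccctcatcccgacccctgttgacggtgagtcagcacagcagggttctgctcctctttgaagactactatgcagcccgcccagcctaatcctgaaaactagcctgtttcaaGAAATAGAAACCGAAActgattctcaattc
The Stat2 window is at chr10:128270248-128270497, plus strand. The Isg15 window is at chr4:156200819-156201068, minus strand. The Ifit1 window is at chr19:34640639-34640888, plus strand, that of Ifit2 at chr19:34550444-34550693, plus strand, and that of Ifit3 at chr19:34583279-34583528, plus strand. The Igtp window is at chr11:58199306-58199555, plus strand, and that of Irgm1 at chr11:48871421-48871670, minus strand. Counted back from the start, Stat2 holds its core far upstream, beginning at base -222, while Isg15 holds 3 overlapping cores between bases -78 and -57. Ifit1 and Ifit3 each hold the same pair of letters, TTTCACTTTC and then TTTCAGTTTC. The window of their neighbour Ifit2 holds no ISRE core and has a GAS core beginning at base -241. Igtp has a GAS core and an ISRE core 2 bases apart, and Irgm1 has 2 overlapping ISRE cores. A match is a match of letters and not a measured binding site. The search took exact cores in the 250 bases before the annotated start. A window without a match, as for the ISRE core in Ifit2, therefore does not show that the gene lacks the element. Whether the cores go with the group differences was not tested.

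Chronic prednisolone was not accompanied by a change in any member that passed correction. With limma and Benjamini-Hochberg adjustment over all 14786 tested genes, 0 of 23 tested members had an adjusted p under 0.05, and the background was 0% of all tested genes. At an unadjusted p under 0.05 there were 3 members, against 5.69% of all tested genes. These were Stat2 and Cmpk2, with lower means in prednisolone mice (2.33% of all tested genes), and Ifit2, with a higher mean (3.37% of all tested genes). Means were lower in prednisolone mice for 17 of the 23 members and higher for 6, against 45.4% of all tested genes lower and 54.6% higher. The median difference was -0.12 over the members and 0.018 over all tested genes. For 18 of the 23 members the difference between the groups was smaller than the spread between mice of the same group. That share was not computed over all tested genes, so the count cannot be read as particular to the members. In bulk tissue, fewer cells of a type and less RNA per cell cannot be told apart.

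That median depended on single mice. It was -0.28 without prednisolone mouse 1 and -0.29 without vehicle mouse 1. It was -0.0086 without prednisolone mouse 3, where 12 of 23 members were lower, -0.054 without vehicle mouse 2 and -0.080 without vehicle mouse 3. The count of members at an unadjusted p under 0.05 was 6 without prednisolone mouse 1, against 4.41% of all tested genes, and 5 without vehicle mouse 1, against 4.13%. It was 2 without prednisolone mouse 2, 3 or 4 and without vehicle mouse 2, where the share of all tested genes was 7.43%, 3.77%, 3.61% and 10.8%. In every one of these fits 0 members passed adjustment.

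**Figure D1:**
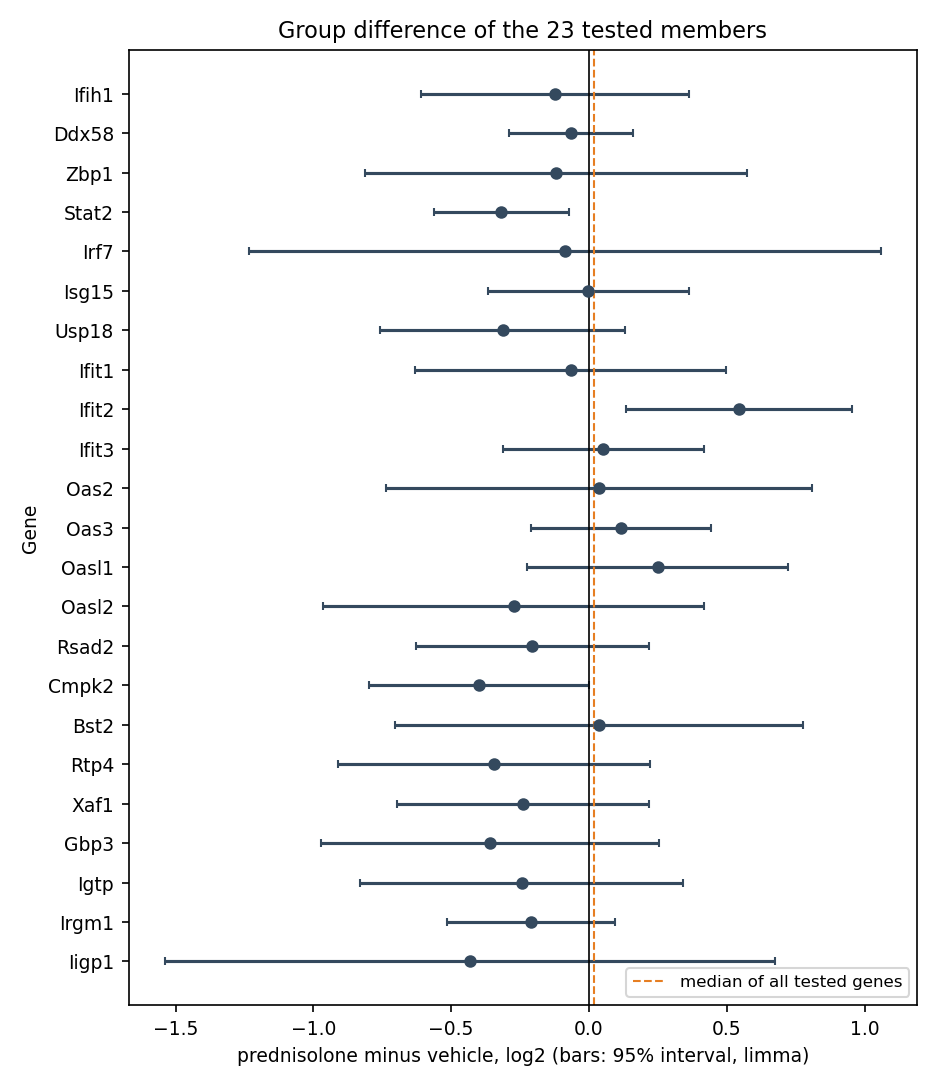
Difference of group means, prednisolone minus vehicle on the log2 scale, for each of the 23 tested members, with the 95% interval of the limma fit. The dashed line is the median of all tested genes at 0.018. The intervals of Stat2, Cmpk2 and Ifit2 exclude 0 before adjustment, and that of Cmpk2 ends at -0.0005.

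Among the signalling members, Stat2, the transducer particular to type I and type III interferon signalling, was the only member whose groups did not overlap. It read 7.99, 7.96, 7.67 and 7.70 in prednisolone mice 1 to 4, against 8.20, 8.28, 8.00 and 8.12 in vehicle mice 1 to 4. All prednisolone mice lay below all vehicle mice, by a gap of 0.0015 between prednisolone mouse 1 and vehicle mouse 3. The difference was -0.32 ± 0.11, a ratio of 0.802, with a limma adjusted p of 0.768. Over all tested genes, 3.2% had groups that did not overlap, 1.39% with prednisolone lower and 1.81% with prednisolone higher. Without prednisolone mouse 1, 5 members had groups apart, all lower in prednisolone mice: Stat2, Irf7, Cmpk2, Rtp4 and Xaf1. In that fit the groups lay apart in 5.35% of all tested genes, 2.4% with prednisolone lower. The count was 3 without vehicle mouse 1 (Stat2, Rsad2 and Irgm1), against 5.28% of all tested genes. It was 2 without vehicle mouse 3 (Stat2, and Ifit2 higher in prednisolone mice), against 7.36% of all tested genes.

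Irf7, the transcription factor that amplifies type I interferon production, differed most between mice of the same group. It read 9.70, 7.59, 7.06 and 7.64 in prednisolone mice 1 to 4, against 8.04, 8.18, 8.08 and 8.04 in vehicle mice 1 to 4. Prednisolone mouse 1 lay above every vehicle mouse and the other 3 prednisolone mice below every vehicle mouse. The standard deviation was 1.17 in prednisolone mice and 0.07 in vehicle mice (n = 4 each). The difference was -0.09 ± 0.50, with a 95% interval from -1.23 to 1.06. Without prednisolone mouse 1 it was -0.65, with a limma adjusted p of 0.893, and without prednisolone mouse 3 it was 0.23.

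Isg15 encodes a small protein that is joined to other proteins much as ubiquitin is, and Usp18 removes it and also restrains signalling at the type I receptor. Usp18 read 7.29, 7.08, 6.55 and 6.99 in prednisolone mice 1 to 4, against 7.35, 7.64, 6.91 and 7.26 in vehicle mice 1 to 4. The groups overlapped, and prednisolone mouse 3 was the lowest of all 8 (-0.31 ± 0.19, limma adjusted p = 0.768). Isg15 read 6.68, 6.52, 6.04 and 6.30 in prednisolone mice 1 to 4, against 6.09, 6.55, 6.40 and 6.50 in vehicle mice 1 to 4. Its group means were 6.38 in both groups, and the 95% interval of the difference ran from -0.37 to 0.36.

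**Figure D2:**
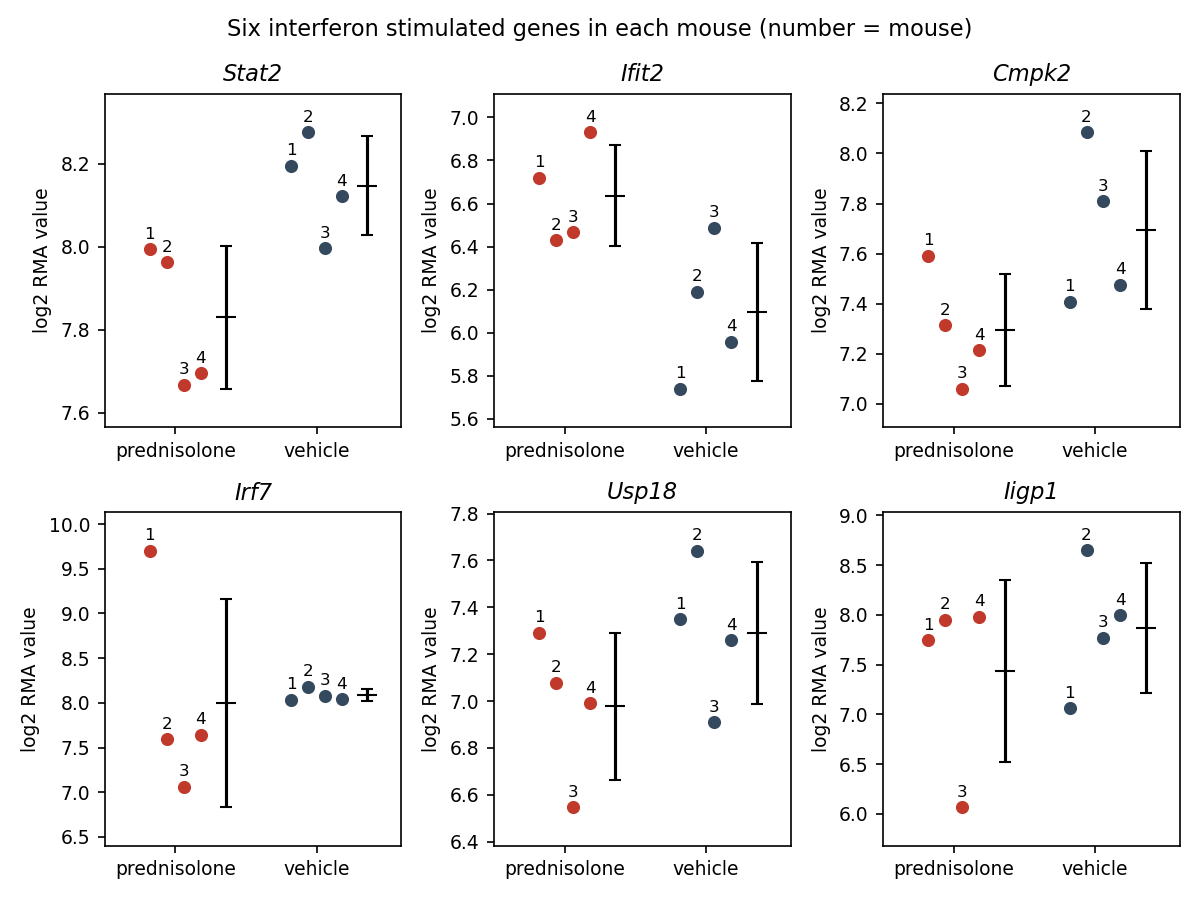
Log2 values of Stat2, Ifit2, Cmpk2, Irf7, Usp18 and Iigp1 in each mouse, prednisolone left of vehicle, with the mouse number above each point. The bar beside each group is its mean with the standard deviation (n = 4). Prednisolone mouse 1 stands at 9.70 for Irf7, and prednisolone mouse 3 at 6.07 for Iigp1. Vertical scales differ between genes and do not start at 0.

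The Ifit proteins bind foreign RNA and limit its translation, and the genes lie close together on chromosome 19. Ifit2 read 6.72, 6.43, 6.47 and 6.93 in prednisolone mice 1 to 4, against 5.74, 6.19, 6.49 and 5.96 in vehicle mice 1 to 4. Vehicle mouse 3 lay inside the prednisolone range and the other 3 vehicle mice below it. The difference was 0.54 ± 0.18, a ratio of 1.46, with a 95% interval from 0.13 to 0.95 and a limma adjusted p of 0.768. Its neighbours Ifit1 (-0.065 ± 0.25) and Ifit3 (0.053 ± 0.16) had group means that differed by less than their spread. The sign turned for Ifit1 without prednisolone mouse 3 or 4 or vehicle mouse 2, and for Ifit3 without prednisolone mouse 1 or vehicle mouse 4. Both were highest in prednisolone mouse 1, at 7.76 for Ifit1 and 7.07 for Ifit3, with vehicle mouse 2 next. Whether Ifit2 differed from Ifit1 and Ifit3 in its group difference was not tested.

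The Oas enzymes make a short nucleotide signal that activates RNase L when they meet double-stranded RNA, and Oasl1 and Oasl2 are related proteins. Of the 4 tested, Oas2, Oas3 and Oasl1 had higher means in prednisolone mice and Oasl2 a lower one, with differences from -0.27 to 0.25. Oasl1, the one with the lowest p, read 6.66, 6.00, 6.28 and 6.14 in prednisolone mice 1 to 4, against 5.75, 6.20, 6.46 and 5.68 in vehicle mice 1 to 4. The groups overlapped (0.25 ± 0.21, limma adjusted p = 0.795). Vehicle mice 1 and 4 held the lowest values of all 4 genes, between 5.68 for Oasl1 and 7.30 for Oasl2. Members of this family resemble one another in sequence, and probes may share signal.

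Mx1 and Mx2 are dynamin-like GTPases that block viruses, and C57BL/6 mice carry a defective Mx1 gene. Both averaged below 5.82, the level under which genes were not tested. Mx1 averaged 4.83 ± 0.53 in prednisolone and 4.93 ± 0.35 in vehicle mice, and Mx2 averaged 5.51 ± 0.18 in prednisolone and 5.37 ± 0.21 in vehicle mice (SD, n = 4 each).

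Among the other antiviral effectors, Cmpk2, a mitochondrial nucleotide kinase, lies next to Rsad2, which encodes viperin. Cmpk2 read 7.59, 7.32, 7.06 and 7.21 in prednisolone mice 1 to 4, against 7.41, 8.09, 7.81 and 7.48 in vehicle mice 1 to 4. Prednisolone mouse 1 lay within the vehicle range and the other 3 prednisolone mice below vehicle mouse 1. The difference was -0.40 ± 0.17, with an unadjusted limma p of 0.0498 and an adjusted p of 0.768. Leaving out vehicle mouse 2 gave -0.27, and weighting the arrays gave -0.26. Rsad2 differed by -0.20 ± 0.18, and by -0.40 without vehicle mouse 1. Rtp4, a chaperone-like protein that restrains some RNA viruses, differed by -0.34 ± 0.25, and Xaf1, a promoter of cell death, by -0.24 ± 0.20. Bst2, the tether of budding virus particles, averaged 9.24 ± 0.67 in prednisolone and 9.21 ± 0.34 in vehicle mice (SD, n = 4 each), with prednisolone mouse 1 at 10.19 and no other mouse above 9.56.

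The 3 sensors showed no difference that passed. Ifih1, which encodes the RNA sensor MDA5, differed by -0.12 ± 0.21. Ddx58, which encodes RIG-I, was the sensor with the lowest p and read 8.21, 8.24, 8.04 and 8.10 in prednisolone mice 1 to 4, against 8.15, 8.44, 8.20 and 8.07 in vehicle mice 1 to 4. The groups overlapped over most of their range (-0.07 ± 0.10, limma adjusted p = 0.876). Zbp1, a sensor of Z-form nucleic acids, averaged 6.81 ± 0.54 in prednisolone and 6.93 ± 0.44 in vehicle mice (SD, n = 4 each), with prednisolone mouse 1 at 7.62 and vehicle mouse 2 at 7.48.

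The GTPases Gbp3, Igtp, Irgm1 and Iigp1 help cells to destroy compartments that hold microbes. All 4 had lower means in prednisolone mice, and all 4 were lowest in prednisolone mouse 3 and highest in vehicle mouse 2. Iigp1 read 7.74, 7.95, 6.07 and 7.98 in prednisolone mice 1 to 4, against 7.06, 8.65, 7.77 and 8.00 in vehicle mice 1 to 4. Apart from mouse 3 the prednisolone mice lay inside the vehicle range. The difference was -0.43 ± 0.48 with all mice and 0.023 without prednisolone mouse 3. Igtp read 7.91, 7.70, 6.68 and 7.59 in prednisolone mice 1 to 4, against 7.50, 8.00, 7.61 and 7.75 in vehicle mice 1 to 4, and its difference of -0.24 ± 0.26 was 0.020 without prednisolone mouse 3. Gbp3 stood at 6.04 in prednisolone mouse 3 and between 6.68 and 7.49 in the other 7 mice. Irgm1, the GTPase with the lowest p, read 6.39, 6.26, 6.02 and 6.27 in prednisolone mice 1 to 4, against 6.15, 6.73, 6.44 and 6.45 in vehicle mice 1 to 4. Its groups overlapped through vehicle mouse 1 (-0.21 ± 0.13, limma adjusted p = 0.768), and the difference was -0.31 without that mouse.

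**Figure D3:**
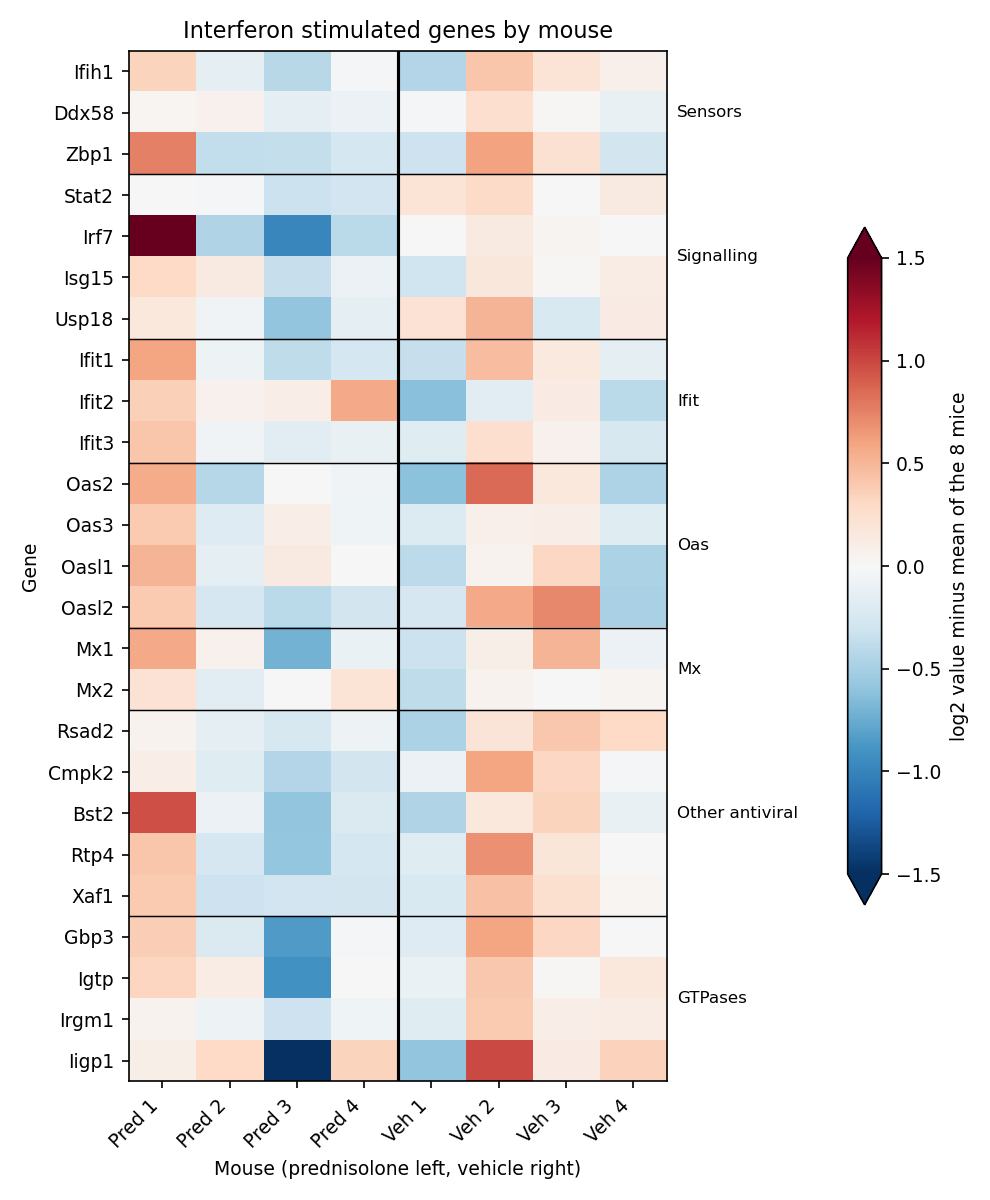
Log2 value of each of the 25 measured members minus its mean over the 8 mice, by mouse, with prednisolone mice left and vehicle mice right of the line. Red is above and blue below the mean of the gene, and colours saturate at 1.5. Prednisolone mouse 1 is above the mean in 25 members and vehicle mouse 2 in 24, and prednisolone mouse 3 is below it in 21.

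The order of the mice cut across the groups. Prednisolone mouse 1 was the highest of all 8 mice in 10 of 25 measured members and vehicle mouse 2 in 12. Prednisolone mouse 3 was the lowest in 14 and vehicle mouse 1 in 6. Such counts by mouse, here and elsewhere, were not made over all tested genes. None can therefore be read as particular to a list. A mean over members of each value minus its 8-mouse mean was 0.40, -0.12, -0.41 and -0.09 in prednisolone mice 1 to 4, against -0.26, 0.36, 0.18 and -0.06 in vehicle mice 1 to 4. The highest and the lowest mouse were thus both treated with prednisolone. The spread within groups was wide, with a median standard deviation of 0.33 over tested members and 0.17 over all tested genes, also 0.17 over the 10626 tested genes in the same range of levels. It exceeded the median of all tested genes in 21 of the 23 members. These values describe the arrays and were not tested.

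The mice that stood apart were not the same for each role. In the Oas, Ifit and signalling groups prednisolone mouse 1 had the highest score, at 0.46, 0.45 and 0.53. In the GTPases vehicle mouse 2 was highest at 0.60, prednisolone mouse 1 stood at 0.21, and prednisolone mouse 3 was lowest at -0.92. Vehicle mouse 2 was also highest in the sensors (0.43) and the other antiviral effectors (0.41). Prednisolone mouse 3 was also lowest in the sensors (-0.30), the other antiviral effectors (-0.43) and the signalling group (-0.56). In the Oas group prednisolone mouse 3 stood at -0.05, above prednisolone mouse 2 at -0.26 and vehicle mice 1 and 4 at -0.37 and -0.40. The GTPases outside the list were looked at after this was seen. Of Gbp4, Gbp5, Gbp6, Gbp7, Gbp9 and Irgm2, 5 were lowest in prednisolone mouse 3, the exception being Gbp5, which was lowest in vehicle mouse 1. Gbp6, among the 5, averaged below the filter on dim genes. Gbp4 read 5.24 in prednisolone mouse 3 and 6.34 to 7.41 in the other mice.

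**Figure D4:**
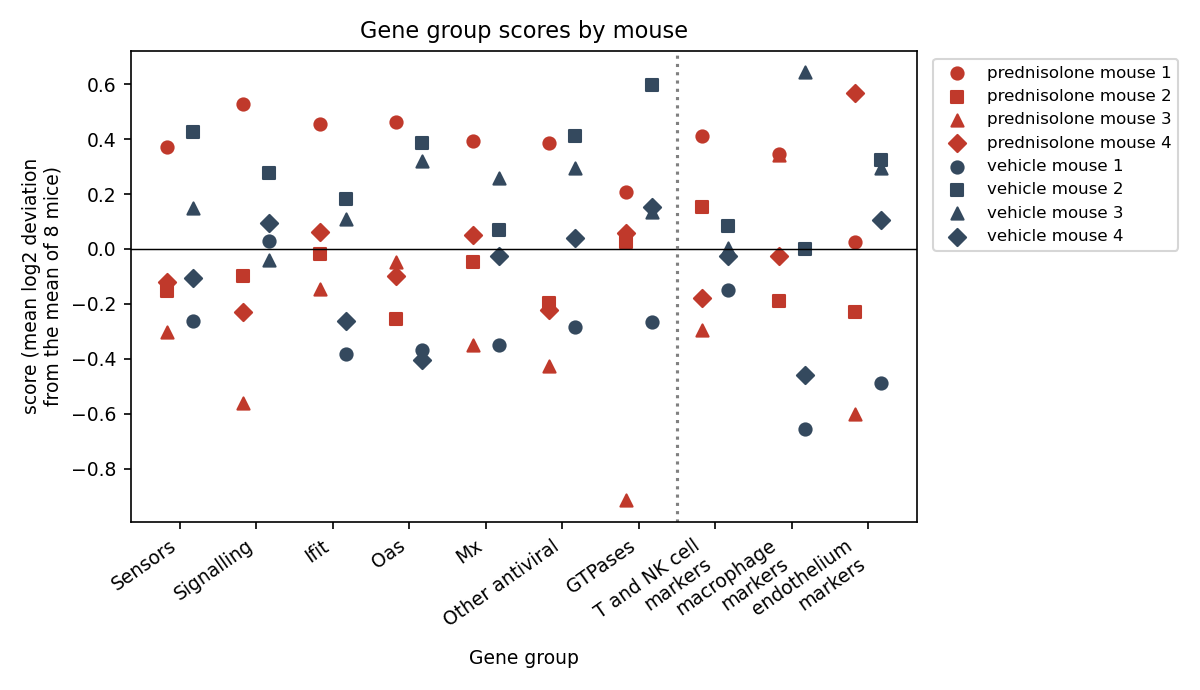
Score of each gene group in each mouse, the mean log2 deviation of its measured genes from their 8-mouse means. Red points are prednisolone mice, left in each group, and dark points are vehicle mice, with 1 marker shape per mouse number. The GTPase score of prednisolone mouse 3 lies at -0.92, and the T and NK cell and endothelial marker scores of the same mouse at -0.30 and -0.60. Its macrophage marker score lies above 0, at 0.34.

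The other parts of the pathway were taken from lists chosen with earlier results of these data known. Irf9, the partner of Stat2, read 8.16, 7.92, 7.41 and 7.77 in prednisolone mice 1 to 4, against 8.88, 8.38, 8.03 and 8.61 in vehicle mice 1 to 4. Prednisolone mouse 1 lay above vehicle mouse 3, and otherwise the prednisolone mice were lower (-0.66 ± 0.21, limma adjusted p = 0.768). Among vehicle mice, Irf9 was highest in mice 1 and 4, which had stronger epididymal signal than mice 2 and 3. Among prednisolone mice, it was highest in mice 1 and 2, which had stronger epididymal signal than mice 3 and 4. Between prednisolone mice 1 and 2, mouse 2 had the stronger epididymal signal and the lower Irf9 value. Without the 3 mice of strongest epididymal signal (prednisolone mouse 2 and vehicle mice 1 and 4) the difference was -0.43. The part of epididymal tissue in it was not tested. Among 7 tested STATs and IRFs, Irf9 was the 1 gene at an unadjusted p under 0.05, against 5.69% of all tested genes, and 0 passed adjustment. Irf9 and Stat2 thus both had lower means in prednisolone mice, and neither passed adjustment.

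Interferon genes themselves were mostly dim, with 7 of 19 measured ligands above the filter. Means of 7 of these 7 were higher in prednisolone mice, against 54.6% of all tested genes. Their median difference was 0.17, against 0.018 over all tested genes, and 0 passed adjustment. Ifna15, an interferon alpha, averaged 6.34 ± 0.27 in prednisolone and 5.89 ± 0.19 in vehicle mice (SD, n = 4 each). Its groups lay apart by 0.0316 (0.45 ± 0.15, limma adjusted p = 0.768), as did those of 3.2% of all tested genes, 1.81% with prednisolone higher. Interferon alpha genes are nearly alike in sequence, so the signal of Ifna15 is uncertain. Ifnb1 averaged 4.40 in prednisolone and 4.39 in vehicle mice, and Ifng 5.73 in prednisolone and 5.46 in vehicle mice, all below the filter. Ifng was highest in prednisolone mouse 3 at 5.86, close to prednisolone mouse 1 at 5.82. Prednisolone mouse 3 also had the lowest GTPase values, and a link between these and Ifng was not tested.

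Of 9 tested receptors and kinases, 1 was past an unadjusted p of 0.05 and 0 passed adjustment. Over all tested genes, the background for each list here, those shares were 5.69% and 0%. Il10rb, a receptor chain shared by interleukin 10 and interferon lambda, averaged 10.16 ± 0.14 in prednisolone and 9.78 ± 0.28 in vehicle mice (SD, n = 4 each), a difference of 0.37 ± 0.15 with a limma adjusted p of 0.768. Without the 3 mice of strongest epididymal signal it differed by 0.15. The type I receptor chains Ifnar1 and Ifnar2 differed by -0.01 ± 0.08 and 0.27 ± 0.12, and the interferon gamma receptor chain Ifngr1 by 0.08 ± 0.14. Among 7 negative regulators 0 were past an unadjusted p of 0.05, and Socs1, an inhibitor of Jak kinases, had the lowest p at 0.21 ± 0.11. Among 15 genes of nucleic acid sensing, Adar, an RNA-editing enzyme, was the 1 past it, with a lower mean in prednisolone mice (-0.24 ± 0.10, limma adjusted p = 0.768).

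A second list of 50 interferon stimulated genes outside the 29 held 39 tested genes. Means were lower in prednisolone mice for 27 and higher for 12, against 45.4% of all tested genes lower and 54.6% higher. The median difference was -0.07, against 0.018 over all tested genes, and 0 passed adjustment. Nmi, a partner of STAT proteins, was the 1 gene at an unadjusted p under 0.05, against 5.69% of all tested genes. Nmi read 7.55, 7.48, 7.00 and 7.33 in prednisolone mice 1 to 4, against 7.64, 7.60, 7.64 and 7.69 in vehicle mice 1 to 4. Its groups lay apart (-0.30 ± 0.12, limma adjusted p = 0.768), as did those of 3.2% of all tested genes, 1.39% with prednisolone lower. The order of the mice was like that of the members: of 45 measured genes, 17 were highest in vehicle mouse 2 and 13 in prednisolone mouse 1. The lowest mouse was prednisolone mouse 3 in 20 genes and vehicle mouse 1 in 19.

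Markers of cell types that make or answer interferon also differed between mice. Adipocyte markers fitted the tissue label, with log2 summed levels from 15.5 to 15.7 in prednisolone and 15.3 to 15.6 in vehicle mice. Means of 7 of 7 tested adipocyte markers were higher in prednisolone mice, opposite to most members, with a median difference of 0.13. Over all tested genes 54.6% were higher. Vehicle mouse 1 was the lowest of all mice in 6 of the 7 adipocyte markers, and prednisolone mouse 3 had the highest adipocyte score at 0.196. Lep, which encodes the hormone leptin, was the 1 marker at an unadjusted p under 0.05 (0.39 ± 0.13, limma adjusted p = 0.768), against 5.69% of all tested genes. T and NK cell markers summed to 8.96 to 9.73 in prednisolone and 9.08 to 9.39 in vehicle mice. Of 10, 5 were highest in prednisolone mouse 1 and 5 lowest in prednisolone mouse 3, and 6, among them Cd3d, Cd3g and Cd8a, averaged below the filter. Plasmacytoid dendritic cells are a main source of type I interferon. Their markers summed to 8.24 to 8.94 in prednisolone and 8.37 to 8.69 in vehicle mice, with Ccr9 and Klk1 below the filter, and 4 of 4 tested had a higher mean in prednisolone mice, by at most 0.082.

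Macrophage markers summed to 13.3 to 13.9 in prednisolone and 12.8 to 14.2 in vehicle mice. Means of 7 of 8 were higher in prednisolone mice, against 54.6% of all tested genes, and vehicle mouse 3 was highest in 7 of 8. Endothelial markers summed to 11.8 to 12.8 in prednisolone and 11.8 to 12.6 in vehicle mice, and prednisolone mouse 3 had the lowest score at -0.60. B cell markers summed to 7.80 to 8.10 in prednisolone and 7.93 to 8.15 in vehicle mice, and neutrophil markers to 7.97 to 8.37 in prednisolone and 7.97 to 8.42 in vehicle mice, with 3 of 5 measured markers below the filter in each. Epididymal transcripts varied most, with summed levels from 8.83 to 15.8 in prednisolone and 8.70 to 15.7 in vehicle mice, and were strongest in prednisolone mouse 2 and vehicle mice 1 and 4. No marker passed adjustment. The part of these markers in the values of the members was not tested, except that the fit was repeated without the 3 mice of strongest epididymal signal. Then 19 of 23 members were lower in prednisolone mice, the median difference was -0.34 and 0 members passed adjustment. With 3 prednisolone and 2 vehicle mice left, the groups did not overlap in 5 of 23 members (21.7%), a share near the 18.8% of all tested genes. These were Stat2, Oasl2, Rsad2, Cmpk2 and Irgm1, all lower in prednisolone mice, as were 8.37% of all tested genes. That fit leaves vehicle mice 2 and 3, which had the highest scores over the members among the vehicle mice. It also keeps prednisolone mouse 1, with a summed epididymal level of 12.4, against 8.70 to 10.3 in the other mice left.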

How the data were processed

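For each mouse, 100 ng of total RNA went onto an Affymetrix Mouse Gene 2.0 ST array. The authors deposited log2 values that Expression Console computed by RMA (robust multiarray averaging), per the labels. RMA corrects background, equalises the distributions of the arrays and summarises probes, so it compresses differences at low signal and removes shifts shared by all genes. The submitters' processing notes add Partek 6.6, with no role. The files' genome build is not given in the sources used here.

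Of 41345 probe sets, 23521 had 1 symbol, 1814 several and 16010 none in the GEO platform annotation, and those with 1 symbol were used. The dimmest 33.3% of genes by mean over 8 arrays, at a log2 value of 5.82, were left out. Group means were tested with limma 3.58.1 in R 4.3.3 (lmFit, eBayes, two-sided, no covariate), using Benjamini-Hochberg adjustment over all 14786 tested genes and a threshold of 0.05. The fit was checked on simulated data with independent noise for each gene and array, and with changes larger than the difference of any member. That check therefore does not cover deviations shared by many genes of a mouse, or differences as small as those of the members. Array medians lay between 6.09 and 6.13, array pairs correlated between 0.879 and 0.986, and the labels name no batch. A summed level is the log2 of the sum of a list's values on the linear scale. The members, lists, tests and rule for naming genes were chosen with earlier results of these data known. Every member is given by value, mean, difference or count. Values of each mouse are given for members with an unadjusted p under 0.05 or groups apart, for Stat2, Irf7, Isg15 and Usp18, and for the lowest p of each role. Those of Iigp1 and Igtp are given as well, outside this rule. Of the pathway lists, genes with an unadjusted p under 0.05, or else the lowest p, and some fixed genes are named. Figures were drawn with matplotlib 3.10.9.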

Additional observations from a re-analysis of the deposited data

Results flagged for a closer look

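In 4 of 50 sets of 4 mice (25 measured members in each group), 1 mouse stood apart from the other 3 by more than Dixon's 95% criterion, which chance gives in about 1 of 20 sets. Prednisolone mouse 1 read 7.62 for Zbp1, where the other prednisolone mice read 6.50 to 6.61, and 8.26 for Xaf1, where they read 7.55 to 7.58. Prednisolone mouse 3 read 6.07 for Iigp1, where the other prednisolone mice read 7.74 to 7.98. Vehicle mouse 1 read 5.07 for Mx2, where the other vehicle mice read 5.45 to 5.50. The value of 9.70 for Irf7 in prednisolone mouse 1 had a gap of 0.78 of the range of its group and did not pass the criterion.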

How the results depend on the processing

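Over 17 alternatives, 0 members passed adjustment with limma, and 12 of 23 tested members kept the sign of their difference wherever they were tested. Stat2 differed by -0.37 to -0.26 and Ifit2 by 0.37 to 0.67 over these alternatives, with lowest adjusted p of 0.356 for each, with array weights. Leaving out 1 mouse at a time, signs turned in these genes, with differences of -0.11 to 0.0090 for Ddx58, -0.39 to 0.0624 for Zbp1, -0.65 to 0.23 for Irf7, -0.10 to 0.11 for Isg15, -0.27 to 0.0801 for Ifit1, -0.0766 to 0.15 for Ifit3, -0.16 to 0.33 for Oas2, -0.28 to 0.24 for Bst2, -0.39 to 0.0198 for Igtp, -0.70 to 0.0229 for Iigp1, -0.0558 to 0.0294 for Ifnar1 and -0.0278 to 0.15 for Ifngr1. Array weights, largest for prednisolone mouse 1 (2.06) and vehicle mouse 4 (2.01), turned Zbp1 to 0.17, Irf7 to 0.30, Isg15 to 0.021, Ifit1 to 0.12, Oasl2 to 0.061 and Ifnar1 to 0.028, and left 12 members lower with a median of -0.0061. After the data were seen, epididymal markers were entered as a covariate, or the 3 arrays with the strongest signal left out. The covariate turned Isg15 to 0.0011 and Oas2 to -0.0043, and 1 of all tested genes, no member, passed adjustment. Without the 3 arrays Irf7 was 0.0046, Ifit3 -0.11, Oas2 -0.34 and Bst2 -0.19, and 5 members had groups apart, against 18.8% of all tested genes. With 1 mouse left out, 2 to 6 members had an unadjusted p under 0.05 (2.95% to 10.8% of all tested genes) and 1 to 5 had groups apart (4.36% to 10.7%). The cause of these changes was not tested. Other filters on dim genes, a repeated quantile normalization, the mean of all probe sets and another variance model left 15 to 18 members lower, of 18 to 25 tested. Mice of the same replicate number did not deviate together (correlations from -0.58 to 0.13, with 0 of 8 mice closest to its own number). Mice with strong epididymal signal did, as prednisolone mouse 2 correlated at 0.57 with vehicle mouse 1 and at 0.45 with vehicle mouse 4. Such shared deviations could hide a pairing by number, so these correlations cannot exclude one. With the number as a replicate block, 3 members had an unadjusted p under 0.05 (3.41% of all tested genes), 0 passed adjustment and the median stayed at -0.12.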
